A study of Mus musculus with 16 samples.

Results

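The RNA that an anti-CPEB4 antibody recovered from untreated wild-type (WT) bone marrow-derived macrophages (BMDMs) was compared with the RNA of the same lysate, the Input, by RNA-immunoprecipitation and sequencing (RIP-seq). The comparison used 4 of the 16 samples of the series, which were the RIP and the Input of the untreated WT culture, each sequenced on 2 lanes. Reads over annotated 3′-UTRs were counted, and each of the 14925 genes with a symbol was represented by its 3′-UTR region with the most reads over the 8 libraries. Of these genes, 6159 had at least 30 reads in the WT untreated pair and 8766 did not. The WT culture carried the number 76 and the Cpeb4 knockout (KO) culture, of a total knockout of the gene, the number 73. Both had the strain label C57BL/6J 129, and neither age nor sex of the mice was used here. BMDMs were grown from femur marrow in medium conditioned by L cells, a source of the macrophage growth factor M-CSF. The KO pair of untreated cells and the WT pair of cells given lipopolysaccharide (LPS, from the outer membrane of bacteria) at 10 ng/ml over 9 h were set beside the WT untreated pair, with which they shared no library. Each combination of genotype, treatment and assay was a single library, so no ratio has a replicate check and every difference is between libraries, not conditions.

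CPEB4 belongs to the cytoplasmic polyadenylation element-binding proteins, which recognise U-rich elements (CPEs) in the 3′-UTR of an mRNA and can lengthen its poly(A) tail or hold its translation back. The effect depends on how many CPEs the 3′-UTR holds and on how they are placed relative to each other and to the polyadenylation hexamer. In macrophages the family is studied for its part in mRNAs that are induced by LPS and that limit the inflammatory response.

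The elements in question are shown for the Cpeb mRNAs, for 6 of the most enriched mRNAs, and for Dusp1, which encodes a phosphatase of MAP kinases. Each line gives the 30-base window of the counted region with the most CPE matches, and the one nearest the 3′ end where windows tied. Of other highly enriched mRNAs, not shown, Id2, Csgalnact2 and Sep15 had 1 CPE in such a window, and Rp2, Wsb1, Yipf4 and Rsrp1 had 2. Sequences run 5′ to 3′ on the strand of the mRNA, with T for U, from mouse build mm10 (GRCm38), and capitals mark CPEs. The motif TTTTGT, which the study also treats as a CPE, was not counted as one here or below.
Cpeb4, chr11:31935395-31935424, + strand: aTTTTAAATaagggtaattcattTTTTATt
Cpeb2, chr5:43289147-43289176, + strand: ttttgggTTTTATTTTATTTTAATagtagt
Cpeb3, chr19:37021516-37021545, - strand: atTTTTACTtggaataaattaaTTTTATga
Smim15, chr13:108048460-108048489, + strand: aTTTTATtaatgagtatggctaTTTTCATt
Khdrbs1, chr4:129713909-129713938, - strand: gaTTTTAATagcacatatttctcTTTTATa
Stag2, chrX:42276320-42276349, + strand: tTTTTAAATttgtaTTTTATattgTTTTAT
Mbnl2, chr14:120431221-120431250, + strand: ctTTTTATttatttataatgtaaTTTTATa
Dr1, chr5:108280308-108280337, + strand: acattcTTTTATtttgTTTTAAATatatgt
Map4k3, chr17:80581295-80581324, - strand: caTTTTATaatcttgtTTTTAATTTTAATg
Dusp1, chr17:26505610-26505639, - strand: tgggatgactttTTTTATacaacagaataa

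The last polyadenylation hexamer and the 24 bases before it are shown for 5 of the most depleted mRNAs, with the hexamer in capitals. These windows were chosen by position and those above by CPE matches, so the windows cannot be compared for CPEs. The whole counted regions of these 5 mRNAs held no CPE.
Eno1, chr4:150248829-150248858, + strand: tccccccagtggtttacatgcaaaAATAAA
Clptm1, chr7:19631599-19631628, - strand: gctatttaacaccttgtttgaaagAATAAA
Slc35c2, chr2:165276571-165276600, - strand: ccacaccatggacccaccgcaggaAATAAA
Slc25a1, chr16:17925238-17925267, - strand: tctcaggaccaccttgccaaggagAATAAA
C1qb, chr4:136880145-136880174, - strand: tagatgttacagaacgaatgggtcAATAAA

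The WT RIP held 1665914 reads over 3′-UTRs with a symbol and the WT Input 929054, of which the chosen regions held 58.9% and 58.4%. The KO RIP held 467696 and the KO Input 1325968. With regions without a symbol included, 3′-UTR reads came to 49.3% of the library total in the WT RIP, 47.3% in the WT Input, 46.9% in the KO Input and 27.5% in the KO RIP. Ribosomal RNA was depleted from the Inputs, per the labels. Of 28 macrophage markers in the table, 27 passed the read minimum, and they held 8024 reads in the WT Input. The lymphocyte, granulocyte and progenitor, and dendritic cell markers in the table (9, 6 and 6 genes) held 3, 0 and 7 WT Input reads, and none of them passed. Of 13 stromal, erythroid and platelet markers 1 passed, the platelet chemokine gene Pf4, with 36 RIP and 21 Input reads and a log2 ratio of -0.09. In bulk RNA, fewer cells of a type and less RNA per cell cannot be told apart.

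To ask which mRNAs the RIP held in excess, reads of the RIP were divided by those of the Input after each library was scaled to its 3′-UTR reads and 1 read was added. A gene was called enriched or depleted where the log2 ratio was past 1 in size (2-fold) and its 95% interval did not reach 0. Reads are not independent molecules, and the intervals cover counting error only. By this rule 1531 of the 6159 genes were enriched (24.9%) and 1271 were depleted (20.6%), while 3357 were neither. Over all genes tested the log2 ratio had a median of 0.06 and a standard deviation of 1.33. Enriched genes had a median log2 ratio of 1.71, a 3.28-fold excess, and depleted genes one of -1.51. The enriched genes held 29.6% of the reads of the chosen regions in the RIP and 9.35% in the Input, and the depleted genes 10.3% and 29.2%. With the exact test of edgeR at a preset coefficient of variation between libraries of 0.4, 75 genes were enriched and 5 depleted, so most calls hold against counting error but not against a spread of that size.

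**Figure D1:**
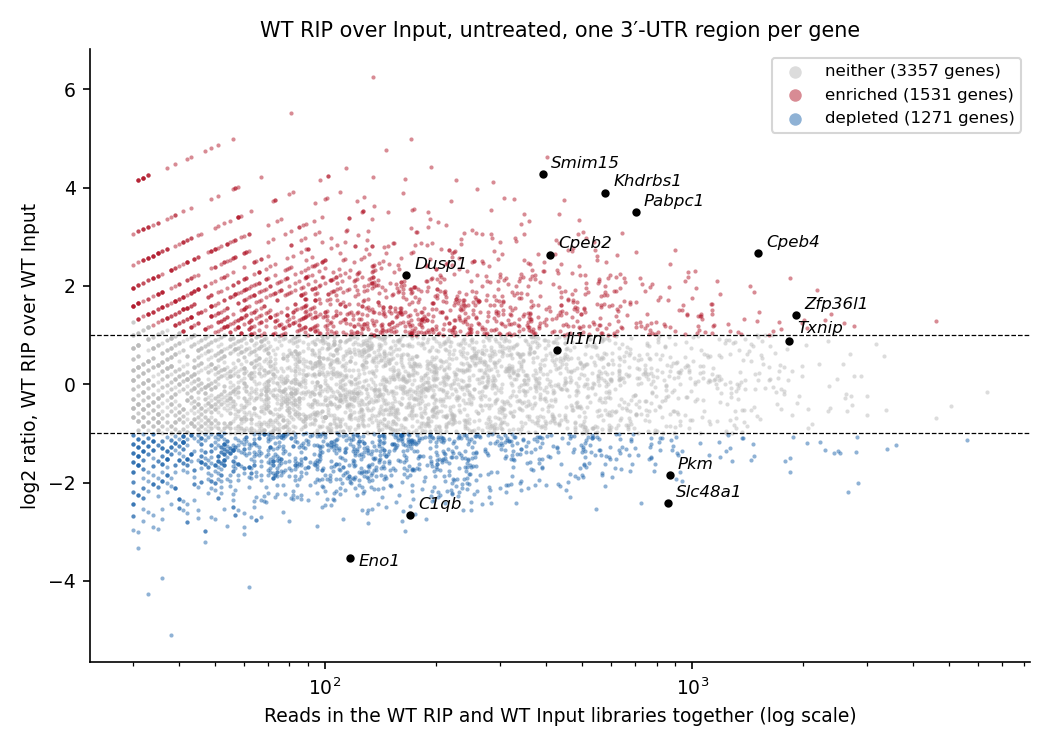
Log2 ratio of WT RIP over WT Input in untreated BMDMs (vertical axis) against the reads of the pair (horizontal axis, log scale) for the 6159 genes tested, with the 1531 enriched and 1271 depleted genes coloured. Ratios spread to both sides of 0 at low and at high read numbers, and the labelled Cpeb4, Pabpc1 and Smim15 lie above the threshold while Slc48a1, a heme transporter, and Eno1 lie below it.

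The mRNA of Cpeb4 itself was among the enriched. Its 3′-UTR region (chr11:31931533-31935634, + strand, 4102 bases) had 1392 reads in the WT RIP and 121 in the WT Input, a log2 ratio of 2.67 (95% interval 2.40 to 2.94). In the KO culture the same region had 120 RIP and 69 Input reads, a log2 ratio of 2.29. The difference of 0.38 between the genotypes (-0.12 to 0.88) did not pass counting error. Scaled to library totals, which raised the difference for every gene alike, it was 1.21 (0.71 to 1.71) and passed. The paralogues behaved otherwise in the KO pair. Cpeb2 had 378 RIP and 33 Input reads in WT cells (log2 ratio 2.64) and 71 and 107 in KO cells (0.92). Cpeb3 had 220 and 24 reads in WT cells (2.30) and 35 and 60 in KO cells (0.74). Both differences, 1.72 (1.05 to 2.38) and 1.56 (0.72 to 2.40), passed counting error. All 3 regions carried a repression prediction. Cpeb1, the founding member of the family, fell below the read minimum.

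Among genes with 100 or more reads over both libraries and 10 or more in each, the 15 with the highest ratio ranged from 3.21 to 4.28 on the log2 scale. Some encode proteins that act on RNA, chromatin or transcription, a grouping made after the genes were seen and not counted over all genes. Khdrbs1, the RNA-binding protein Sam68, had 559 RIP and 20 Input reads (3.89). Stag2, a subunit of the cohesin ring, had 297 and 11 reads (3.79), and Mbnl2, a muscleblind splicing regulator, had 430 and 17 (3.74). Id2, an inhibitor of basic helix-loop-helix transcription factors, had 315 and 12 reads (3.76), and Dr1, a repressor of TATA-binding protein, had 468 and 25 (3.33). Pabpc1, the cytoplasmic poly(A)-binding protein, had 669 and 32 reads (3.50).

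The other members of that group have more varied roles. Smim15, a small membrane protein, had the highest ratio of the 15 with 382 RIP and 10 Input reads (4.28). Wsb1, the substrate receptor of a ubiquitin ligase, had 414 and 20 reads (3.46), and Map4k3, a kinase upstream of JNK, had 202 and 11 (3.24). Csgalnact2, an enzyme of chondroitin sulfate synthesis, had 341 and 18 reads (3.33), and Sep15, a selenoprotein of the endoplasmic reticulum, had 323 and 18 (3.25). Rp2, Evi2a, Yipf4 and Rsrp1 had log2 ratios of 3.55, 3.45, 3.30 and 3.21. A CPE prediction was listed for 13 of the 15 (not for Pabpc1 and Evi2a), and the GC content of their regions was 28.7% to 37.7%. All 15 were enriched in the KO pair too, at log2 ratios of 1.15 to 3.36. The WT ratio was above the KO ratio beyond counting error in 10 of them, against 19.4% of all genes tested in both pairs. The 15 were picked by the WT ratio, which is part of that difference, so the count does not test them. In the LPS pair all 15 were enriched, at 2.43 to 4.16.

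The 15 lowest ratios, by the same rule, ranged from -3.53 to -2.54. Eno1, the glycolytic enolase, had 15 RIP and 102 Input reads (-3.53), and Gpi1, glucose-6-phosphate isomerase, had 30 and 101 (-2.56). Slc25a1, the mitochondrial citrate carrier, had 23 and 89 reads (-2.75), and Slc35c2, a Golgi sugar transporter homologue, had 26 and 105 (-2.82). Atp6v0d1, a subunit of the proton pump of lysosomes, had 31 and 103 reads (-2.54).

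C1qb, a chain of complement C1q, had 37 RIP and 133 Input reads (-2.66), and Apoe, a lipid carrier, had 37 and 126 (-2.58). Pld3, a lysosomal nuclease, had 39 and 137 reads (-2.63). Clptm1, Def8, Ncln, Sepw1, Ttyh2, Tspan31 and D8Ertd738e had log2 ratios of -2.98, -2.78, -2.75, -2.61, -2.55, -2.55 and -2.55. Of the region of Tspan31, 75.6% lies in exons of Cdk4 on the other strand. Ttyh2 was the only one of the 15 with a prediction, 13 held no CPE, and GC content was 47.6% to 59.9%. In the KO pair 9 of the 15 were depleted and 0 enriched (log2 ratios -2.12 to -0.25). The WT ratio was below the KO ratio beyond counting error in 11, against 19.1% of all genes tested in both pairs. These 15 were picked by the WT ratio too, so the count does not test them. In the LPS pair all 15 were depleted.

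The deposited Prediction column classifies each region by the arrangement of its CPEs. REPRESSION stands for CPEs close to each other, and the ACTIVATION classes stand for a CPE near a polyadenylation hexamer, graded as early or late and as weak or strong. Of the 2619 genes with any prediction, 38.3% were enriched (95% Wilson interval 36.4 to 40.1) and 5.69% were depleted, with a median log2 ratio of 0.63. Of the 3540 genes with none, 14.9% were enriched (13.8 to 16.2) and 31.7% were depleted, with a median of -0.44. The difference in the share enriched was 23.3 percentage points (21.1 to 25.5). These intervals treat genes as independent draws, but all genes share the same RIP and Input library. They cover no spread between libraries.

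Repression and activation lay close together. The 1431 genes with repression only were enriched in 40.1% (37.6 to 42.7) and depleted in 4.61%, and the 1188 with any activation were enriched in 36% (33.3 to 38.8) and depleted in 6.99%. The early activation classes had higher medians where repression was also listed. Early strong activation alone had a median log2 ratio of 0.06 with 22.8% enriched (254 genes), and early strong activation with repression one of 0.88 with 45.6% (298 genes). For early weak activation the medians were 0.33 alone (295 genes) and 0.82 with repression (282 genes). These classes also differed in GC content and CPE number. Early strong activation had a median of 45.8% GC and 2 CPEs alone, and 40.5% and 7 with repression. Early weak activation had 43.9% and 2 alone, and 40.3% and 7 with repression. The part of each feature was not tested. Genes with late strong activation and repression numbered 30, and 12 of them were enriched (median 0.56). Biphasic activation with repression numbered 9 genes, with a median of 0.05.

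The absence of a prediction covered 2 kinds of region. The 1331 genes with no CPE, TTTTGT not being counted, were depleted in 52.0% and enriched in 6.61%, with a median log2 ratio of -1.05. The 2209 genes with at least 1 CPE but no prediction were depleted in 19.5% and enriched in 20.0%, with a median of -0.05. Among the genes with no prediction, the hexamer near the end of the region made little difference, with 15.2% enriched where it was present (2541 genes) and 14.3% where it was not (999 genes).

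Width was related to the ratio mainly through depletion. Regions of up to 250 bases were depleted in 46.6% and enriched in 14.1% (234 genes, median log2 ratio -0.87). The share depleted was 34.4% above that and up to 500 bases, 28.5% up to 1000, 19.2% up to 2000, 12.3% up to 4000 and 9.72% over 4000 bases. The share enriched was 28.1% between 2000 and 4000 bases and 24.4% over 4000 bases. Regions of up to 500 bases were depleted more often than those over 2000 bases by 26.5 percentage points (22.8 to 30.2). That interval also treats genes as independent and covers no spread between libraries. Narrow regions were richer in GC, with a median of 49.1% up to 250 bases and 42.5% over 4000 bases. At 50 to 55% GC the share depleted was 60% up to 250 bases, between 42.9% and 49.6% in the next 4 classes and 58.3% over 4000 bases, so the order by width did not hold there. At 45 to 50% GC it went from 43.8% in the narrowest to 13% in the widest class. The Spearman correlation of the ratio with width was 0.20 across the 6159 genes, which share the same 2 libraries and are not independent.

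Wide regions also carried predictions more often, from 10.7% of those of up to 250 bases to 72.3% of those over 4000 bases, so the 2 features were crossed. With no prediction, the share enriched was between 10.5% and 16.9% in the 6 width classes. With repression only it was between 31.5% and 46.1% in the 5 classes over 250 bases, and with activation between 25.6% and 45.8% in all 6. The share depleted was at least 22.7% in every width class with no prediction and at most 9.84% in the 5 classes with repression only, so the split by prediction was present at each width. The narrowest class held 1 gene with repression only.

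**Figure D2:**
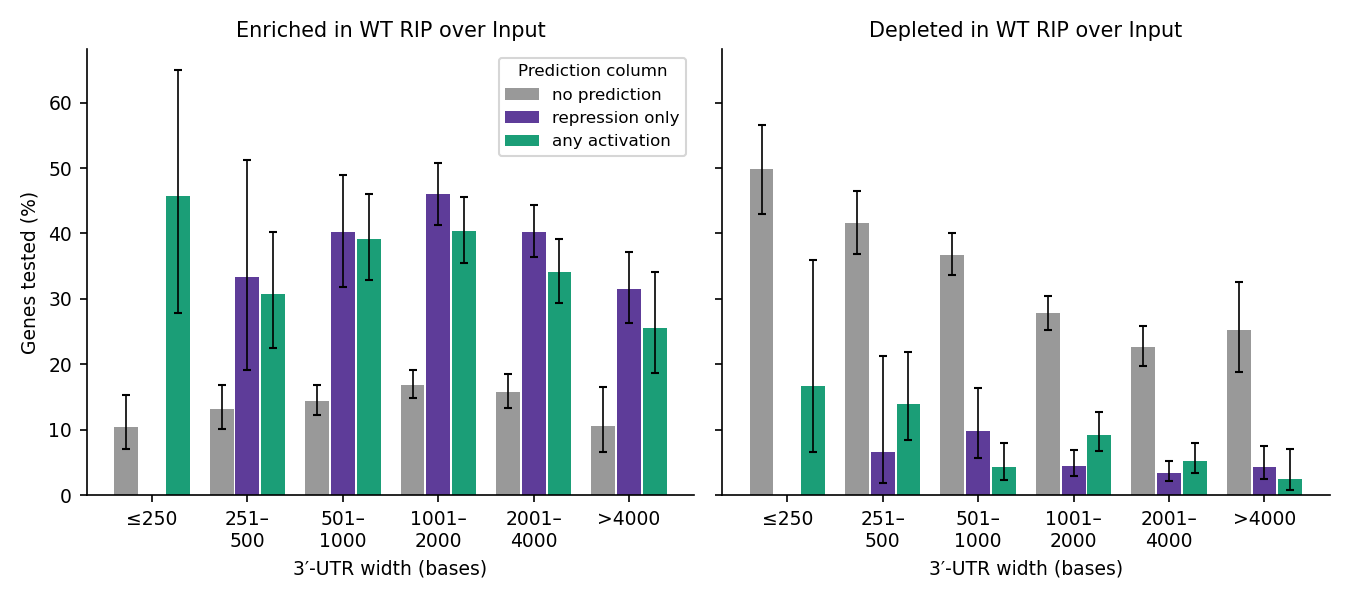
Percent of genes enriched and depleted in the WT untreated pair (vertical axes) in 6 classes of 3′-UTR region width in bases, for genes with no prediction, repression only and any activation, with 95% Wilson intervals as error bars. The intervals treat genes as independent and cover no spread between libraries. The share enriched without a prediction stays between 10.5% and 16.9% across widths, and the share depleted without a prediction is lower in wider regions up to 4000 bases, where it is 22.7%, and is 25.2% over 4000 bases.

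Motifs were counted in the genome sequence of every region on the strand of the mRNA. A CPE was TTTTAT or TTTTAAT (consensus) or TTTTACT, TTTTAAAT, TTTTAAGT or TTTTCAT (non-consensus), and the counts equalled the deposited ones in all 14925 regions. A CPE was present in 94.3% of the enriched and 45.6% of the depleted regions, against 78.4% of the tested and 64.9% of all regions. Per kilobase the enriched regions held 3.16 CPEs and the depleted regions 0.67. With 6 or more CPEs, 47.9% of 1530 genes were enriched and 1.31% depleted, with a median log2 ratio of 0.96.

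Other motifs were counted in the same way. ATTTA, the core of AU-rich elements, was present in 91.4% of the enriched and 50.9% of the depleted regions (77.1% of the tested and 65.2% of all regions). TTTTGT, a CPE in the study but counted apart here, was present in 84.7% and 42.6% (69.4% of the tested and 54.6% of all). TGTANATA, the Pumilio motif, was present in 48.1% and 12.8% (31.6% of the tested and 23.6% of all). The hexamer AATAAA or ATTAAA was present in 97.1% and 88.6% (93.5% of the tested and 87.7% of all). The depleted regions thus held it less often than the tested regions, and about as often as all regions. TTTTAT and ATTTA can share bases, so these counts overlap.

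Base composition followed the ratio more closely than the number of CPEs did. Of the 462 genes with under 35% GC in the region, 87.4% were enriched and 0.433% depleted, with a median log2 ratio of 2.13. The median was 1.22 at 35 to 40% GC (1183 genes), 0.34 at 40 to 45% (1424), -0.39 at 45 to 50% (1408) and -0.93 at 50 to 55% (1154). Of the 528 genes with 55% GC or more, 1.14% were enriched and 64.4% depleted, with a median of -1.32. The Spearman correlation of the WT ratio with GC content was -0.76 over the 6159 genes, and with the number of CPEs 0.55. The KO ratio had a correlation with GC content of -0.63 over the 5198 genes tested in both pairs. The part of GC content in these ratios was not tested.

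Within GC classes the prediction still split the WT ratios, mostly at the GC-rich end. At 45 to 50% GC the median log2 ratio was -0.11 with a prediction and -0.53 without, at 50 to 55% it was -0.46 and -1.07, and at 55% or more -0.78 and -1.37. At 35 to 40% it was 1.29 and 1.09, and under 35% it was 2.13 and 2.16. In the KO pair the medians with and without a prediction were -0.26 and -0.32 at 45 to 50% GC, -0.64 and -0.64 at 50 to 55%, and -0.86 and -0.71 at 55% or more. The WT minus KO median was higher with a prediction in each of the 6 classes, at 0.86 against 0.54 under 35% GC and at 0.33 against -0.70 at 55% or more. Scaled to library totals, the medians at 55% or more were 1.16 and 0.13, so the sign without a prediction depended on the scaling.

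**Figure D3:**
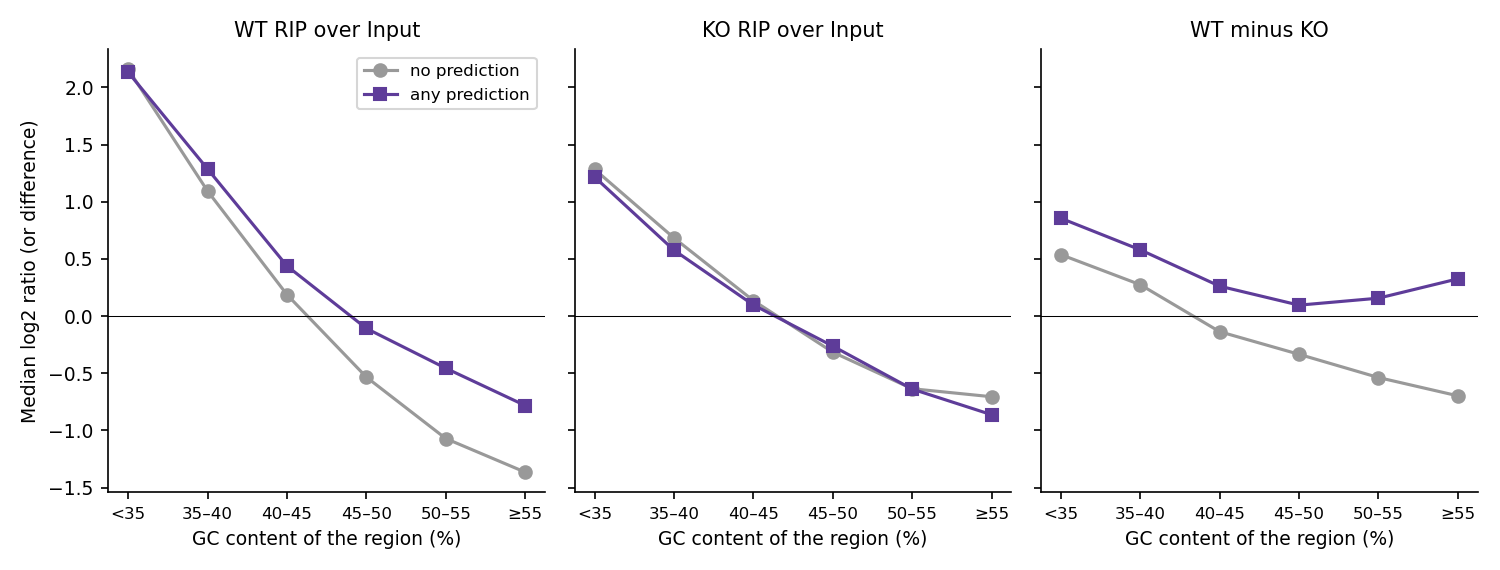
Median log2 ratio of RIP over Input in the WT pair, the KO pair, and WT minus KO (vertical axes) in 6 classes of GC content of the 3′-UTR region, for genes with and without a prediction, untreated. KO medians and differences cover only the genes tested in both pairs. Both pairs fall from high ratios under 35% GC to low ratios at 55% GC or more, and the lines with and without a prediction lie apart in WT minus KO, at 0.33 and -0.70 in the class of 55% GC or more. Scaled to library totals, these 2 values would be 1.16 and 0.13.

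Abundance went with the ratio as well. Genes were ordered by their read density (reads per kilobase, scaled to 1000000 reads over 3′-UTRs) in the KO Input, a library that is not part of the WT ratio, and split into 5 equal bins. In the lowest bin (median density 6.77) 50.2% of genes were enriched and 4.46% depleted. In the highest bin (median density 165) 4.87% were enriched and 42.6% depleted. A gene low in the Input could pass the read minimum through its RIP reads, so the filter admitted scarce mRNAs mainly where their RIP reads were many.

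Gene groups were then described by function, beside the median log2 ratio of 0.06, the 24.9% enriched and the 20.6% depleted over all genes tested. Splicing factors, CCR4-NOT and poly(A) factors, and regulators of mRNA decay stood at the upper end. Translation initiation factors, which act on mRNA too, had a lower median of 0.47. Of 29 tested SR and hnRNP splicing factors, 23 were enriched (79.3%) and 0 depleted, with a median log2 ratio of 1.5. Hnrnpf had 278 RIP and 8 Input reads (4.11), Hnrnpm 170 and 12 (2.88), and Hnrnpl, at the low end, 95 and 77 (-0.54). Of 33 tested genes of the CCR4-NOT deadenylase and of poly(A) metabolism, 24 were enriched (72.7%) and 0 depleted (median 1.18). Cnot7, a catalytic deadenylase, had 242 and 15 reads (3.08), and Cstf1, a cleavage factor, 61 and 46 (-0.44).

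Of 12 regulators of mRNA decay that bind AU-rich elements or stem-loops, 8 were enriched (66.7%) and 0 depleted, with a median of 1.25. Its highest named members, Rc3h2 and Rc3h1, are the Roquin proteins, which are known for recognising stem-loops, and had log2 ratios of 2.74 and 1.90, with 41 and 80 Input reads. Elavl1, the stabilising protein HuR, had 174 and 74 reads (0.38), and Khsrp, a decay factor, 719 and 387 (0.05). The median GC content of the 3 groups was 35.8%, 40% and 39%, against 45% over all genes tested, and 69.0%, 66.7% and 83.3% of their tested members had a prediction, against 42.5%.

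Groups of metabolism and of the lysosome stood at the lower end. Of 17 tested glycolysis genes, 0 were enriched and 12 depleted, with a median of -1.57. Pkm, pyruvate kinase, had 289 RIP and 579 Input reads (-1.84), whereas Hk2, hexokinase, had 236 and 85 (0.62) and the glucose transporter Slc2a1 164 and 59 (0.62). Of 24 tested subunits of oxidative phosphorylation, 0 were enriched and 9 depleted (median -0.59), among them Atp5d with 58 and 140 reads (-2.10). The other 55 of 79 subunits fell below the read minimum.

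Of 47 tested V-ATPase and lysosome genes, 20 were depleted and 7 enriched (median -0.80). Ctsa, the protease cathepsin A, had 182 RIP and 543 Input reads (-2.41), with 27.5% of its region in exons of Pltp on the other strand, whereas Atp6ap2, an accessory subunit of the proton pump, had 254 and 26 (2.40). Of 23 antioxidant genes 10 were depleted and 5 enriched (median -0.89), but Nfe2l2, which encodes their regulator NRF2, had 190 and 4 reads (4.41, 3.13 to 5.69). Nfe2l2 passed the read minimum through its RIP reads, and its ratio rests on few Input reads. The other 4 enriched antioxidant genes were Gclc (2.19), Cat (2.04), Txn1 (1.63) and Gclm (1.29), which were looked up after the counts were seen. Of 27 macrophage markers 12 were depleted and 5 enriched (median -0.70), from the mannose receptor Mrc1 at 2.08 (143 and 18 reads) and the protease Ctss at 1.47 to the Fc receptor Fcgr1 at -1.99 and C1qb. The other 3 enriched markers were Mertk (1.40), Maf (1.18) and Msr1 (1.08). Replication histones were depleted in 3 and enriched in 0 of 6 (median -1.12, and -2.33 with at least 10 reads). Of 11 aminoacyl-tRNA synthetases 2 were depleted, Aars (53.9% of its region in an exon of Exosc6 on the same strand) and Yars, and 2 enriched, the mitochondrial Hars2 and Iars2 (median -0.66). Below the read minimum fell 49 of 55 replication histones and 26 of 37 synthetases.

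**Figure D4:**
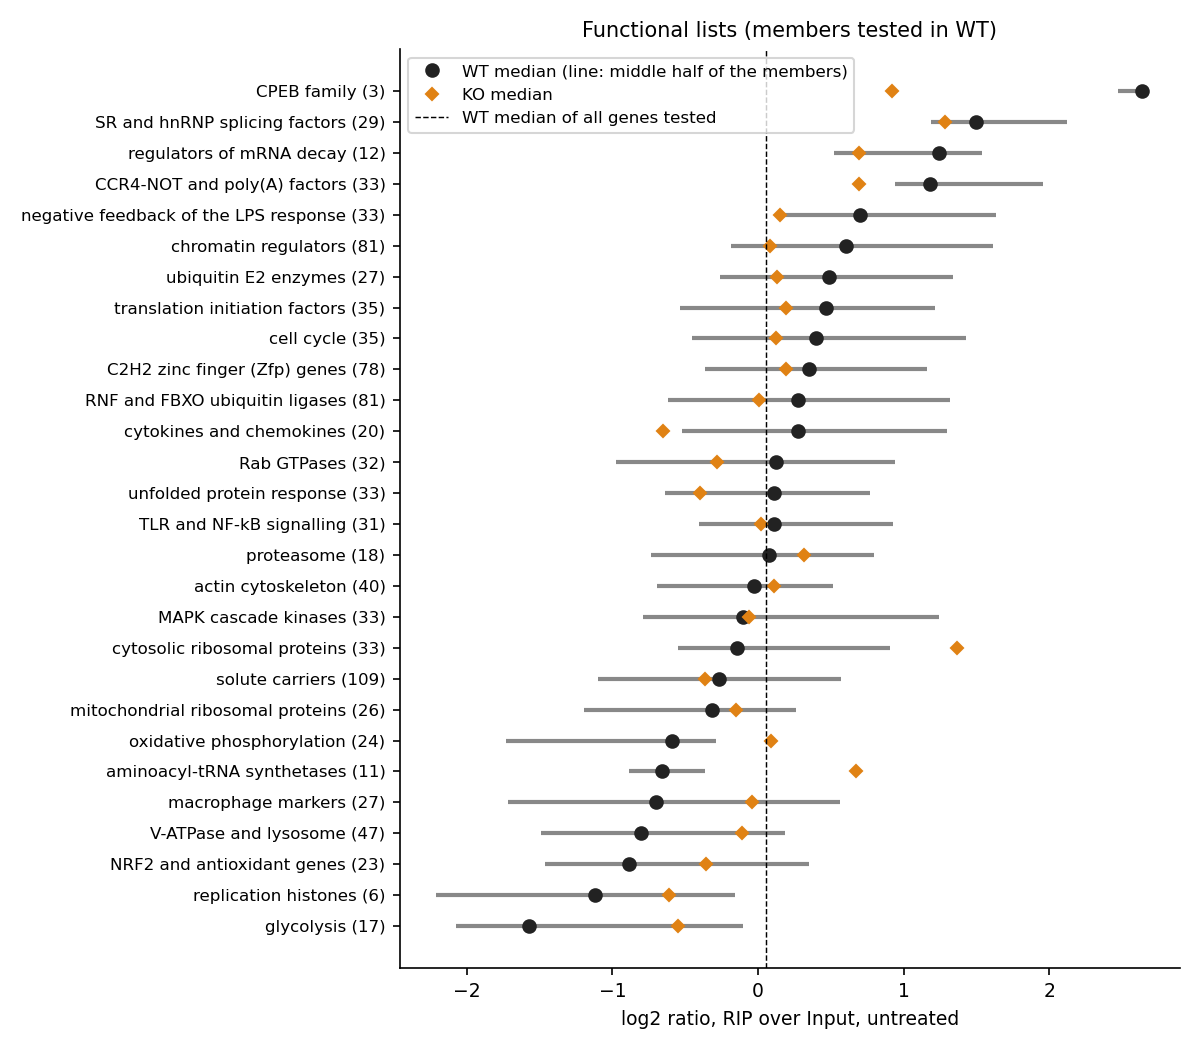
Median log2 ratio of RIP over Input of each gene group in the WT and KO untreated pairs (horizontal axis), with thin lines for the middle 50% of the WT ratios and the number of genes tested in WT cells beside each name. WT medians cover all of these genes, and KO medians only those also tested in KO cells. The CPEB family, splicing factors and regulators of mRNA decay lie to the right of the median of all genes, and glycolysis (WT median -1.57) lies farthest to the left.

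Most other groups held genes of both directions. Chromatin regulators had 30 enriched and 8 depleted of 81 (median 0.60), ubiquitin E2 enzymes 10 and 3 of 27 (0.49), and translation initiation factors 11 and 5 of 35 (0.47). Cell cycle genes had 15 and 4 of 35 (0.40). Cdkn1b, the inhibitor p27, had 326 RIP and 32 Input reads (2.47), and the transcription factor E2f1 had 60 and 112 (-1.73). RNF and FBXO ubiquitin ligases had 26 and 16 of 81 (0.28), and C2H2 zinc finger genes 22 and 9 of 78 (0.35). The other 199 of 277 zinc finger genes fell below the read minimum.

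In the signalling groups the median was near that of all genes, with members at both ends. Toll-like receptor and NF-kB genes had 8 enriched and 4 depleted of 31 (25.8% and 12.9%, median 0.11), an enriched share close to the 24.9% over all genes. The receptor Tlr4 itself had 129 RIP and 13 Input reads (2.37), Peli1, a ubiquitin ligase of the pathway, 204 and 18 (2.59), and the NF-kB subunit Rela 53 and 131 (-2.13). MAPK cascade kinases had 10 and 7 of 33 (-0.10), with the upstream kinase Map3k2 at 2.03 (644 and 87 reads) and the p38 kinase Mapk14 at -1.28 (273 and 371). Unfolded protein response genes had 8 and 4 of 33 (0.11), with the transcription factor Xbp1 at -2.11 (69 and 167 reads). Rab GTPases had 7 and 8 of 32 (0.13), solute carriers 18 and 30 of 109 (-0.27), actin cytoskeleton genes 5 and 7 of 40 (-0.03), proteasome genes 4 and 4 of 18 (0.07), cytosolic ribosomal proteins 6 and 4 of 33 (-0.14) and mitochondrial ribosomal proteins 2 and 8 of 26 (-0.31). The shares enriched in Rab GTPases (21.9%) and proteasome genes (22.2%) were near that of all genes too. With at least 100 reads the medians of proteasome genes and mitochondrial ribosomal proteins were -0.64 and -1.09. Below the read minimum fell 49 of 82 cytosolic and 51 of 77 mitochondrial ribosomal protein genes, 30 of 48 proteasome genes and 143 of 252 solute carriers. These values therefore describe the tested members and not the whole groups.

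Of 20 cytokine and chemokine genes tested, 7 were enriched (35%) and 4 depleted (20%), with a median of 0.27, against 24.9% and 20.6% of all genes. Growth factors with many reads were among the enriched. Igf1 had 3756 RIP and 863 Input reads (1.28), and Vegfa 323 and 77 (1.21). The chemokines Ccl7, Ccl2 and Cxcl2 had 183 and 8 reads (3.51, 2.55 to 4.48), 107 and 3 (3.91, 2.47 to 5.35) and 54 and 3 (2.94, 1.48 to 4.40), so their ratios rest on few Input reads. They passed the read minimum through their RIP reads and count among the enriched. Tnf had 60 and 44 reads (-0.40), and Tgfb1 had 7 and 40 (-3.20). The other 31 of 51 cytokine genes fell below the read minimum in untreated cells, among them Cxcl1 with 2 and 0 reads.

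To ask how far these ratios depended on CPEB4, the KO pair was set beside the WT pair. In the KO pair 690 of 5304 genes tested were enriched (13.0%) and 588 depleted (11.1%). Of the 1531 genes enriched in WT cells, 1085 were tested in the KO pair. There 479 of them were enriched too (44.1%), 7 were depleted, and 988 had a ratio of the same sign (91.1%). Their median log2 ratio was 1.58 in WT and 0.90 in KO cells. Of the 1207 genes depleted in WT cells and tested in the KO pair, 345 were depleted too (28.6%) and 6 were enriched, with medians of -1.51 and -0.70. Across the 5198 genes tested in both, the Spearman correlation of the WT and KO ratios was 0.66.

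The WT ratio was above the KO ratio beyond counting error in 1007 of the 5198 genes (19.4%) and below it in 991 (19.1%). Among genes enriched in WT cells it was above in 525 of 1085 (48.4%), and among depleted genes below in 631 of 1207 (52.3%). Genes were placed in these sets by the WT ratio, which is also part of the difference, so these counts describe the sets and do not test them. The KO RIP had the lowest share of its total in 3′-UTRs, and scaling to library totals raised WT minus KO by 0.83 on the log2 scale for every gene. On that scale 905 enriched genes had a WT ratio above the KO ratio and 127 depleted genes one below it. Differences between the genotypes are therefore given relative to the 3′-UTR reads.

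Genes with a prediction had a median WT minus KO log2 ratio of 0.38 (2168 genes) and those without one of -0.31 (3030 genes). On library totals these medians were 1.21 and 0.52, so their order held but the sign without a prediction did not. By function, the median difference was 1.56 in the 3 CPEB genes, 0.80 in the 11 regulators of mRNA decay tested and 0.60 in CCR4-NOT and poly(A) factors. Cnot7 had 19 RIP and 34 Input reads in KO cells (log2 ratio 0.70), a difference of 2.39 (1.31 to 3.46), whereas Pabpc1 had 169 and 46 (3.36), a difference of 0.14 (-0.54 to 0.83). Splicing factors had a median of 1.5 in WT cells (29 genes) and one of 1.29 in KO cells (27 genes). Over the 27 tested in both pairs the median difference was 0.39, and 8 of 27 had a WT ratio above the KO ratio.

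Other groups differed in the other direction. Here WT medians cover all members tested in WT cells, and KO medians and differences only those tested in both pairs. Cytosolic ribosomal proteins had medians of -0.14 in WT (33 genes) and 1.37 in KO cells (22 of 82 genes), and a median difference of -1.13. Their WT ratio was below the KO ratio in 13 of 22 and above it in 0. Rpsa had 83 RIP and 91 Input reads in WT cells (-0.97) and 78 and 79 in KO cells (1.49). Oxidative phosphorylation had medians of -0.59 (24 genes) and 0.09 (19 genes), with a median difference of -1.39 (below in 10 of 19). For aminoacyl-tRNA synthetases the medians were -0.66 (11 genes) and 0.68 (8 genes), with a median difference of -1.42 (below in 6 of 8). On library totals their median differences remained below 0, at -0.30, -0.56 and -0.59, and that of glycolysis was -0.05. The median differences of V-ATPase and lysosome genes (-0.67), macrophage markers (-0.64), antioxidant genes (-0.67), mitochondrial ribosomal proteins (-0.67) and proteasome subunits (-0.64) turned positive on library totals, at 0.16 to 0.20, as did those of initiation factors (-0.34), zinc finger genes (-0.12) and actin cytoskeleton genes (-0.18). The median of replication histones (-0.83) came to 0.00 there.

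Negative feedback regulators of the LPS response were of interest because the study of CPEB4 in macrophages concerns them. Of 45 such genes, 33 were tested in untreated WT cells, and 14 were enriched (42.4%) and 3 depleted (9.09%), with a median log2 ratio of 0.70, against 24.9% and 20.6% of all genes. The other 12 fell below the read minimum. Scarce members such as Rgs1 and Socs3 passed it through their RIP reads, so these shares describe the tested genes and do not test the group. In the 26 tested in both genotypes the WT ratio was above the KO ratio beyond counting error in 14 (53.8%) and below it in 2 (7.69%, Atf3 and Nfkbie), against 19.4% and 19.1% of all genes. Their median WT minus KO was 0.89.

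Dusp1 had 149 RIP and 17 Input reads in WT cells (log2 ratio 2.22, 1.51 to 2.92) and 7 and 43 in KO cells (-0.96, -2.04 to 0.13). The difference of 3.17 (1.88 to 4.47) was the widest in this group. Il1rn, the antagonist of the interleukin-1 receptor, had 319 and 109 reads in WT cells (0.70) and 15 and 110 in KO cells (-1.29). Txnip, an inhibitor of thioredoxin, had 1403 and 427 reads (0.87) and 164 and 654 (-0.49). Zfp36, the decay factor tristetraprolin, had 474 and 178 reads (0.57) and 72 and 307 (-0.57). For these 4 genes the scaled RIP reads were further apart between the genotypes than the scaled Input reads.

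Inhibitors of receptor and kinase signalling were among the enriched. Spred1, an inhibitor of Ras signalling, had 1264 RIP and 176 Input reads (2.0), Socs5, a suppressor of cytokine signalling, 184 and 28 (1.83), and Dusp6, a phosphatase of ERK, 177 and 25 (1.93). Their KO ratios were 0.75, 0.09 and 0.31. Bcl3, a nuclear NF-kB regulator, and Dusp7, another MAP kinase phosphatase, were not enriched in WT cells (0.61 and 0.29) but had KO ratios of -1.33 and -1.18. Nfkbia, the NF-kB inhibitor IκBα, had 502 and 37 reads (2.88) and a KO ratio of 1.76. Rgs1, a regulator of G protein signalling, had 112 and 2 reads (4.39, 2.74 to 6.05) and passed the read minimum through its RIP reads.

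Not all of the feedback genes followed. Atf3, a transcriptional repressor induced by LPS, had 187 RIP and 320 Input reads (-1.61) and a KO ratio of -0.78. Nfkbie, an inhibitor of NF-kB, had 30 and 41 reads (-1.28) and a KO ratio of 0.92, and Tnip1, a partner of A20, had 26 and 48 (-1.70). Tnfaip3, the ubiquitin-editing enzyme A20 itself, had 107 and 41 reads (0.52) and a KO ratio of 0.84, and the difference of -0.32 (-1.11 to 0.47) did not pass counting error. Socs3, with 42 and 7 reads (1.58), was enriched in WT cells but fell below the minimum in the KO pair, and Socs1, with 21 and 2 reads, and Ptgs2, with 2 and 1, fell below it in the WT pair.

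**Figure D5:**
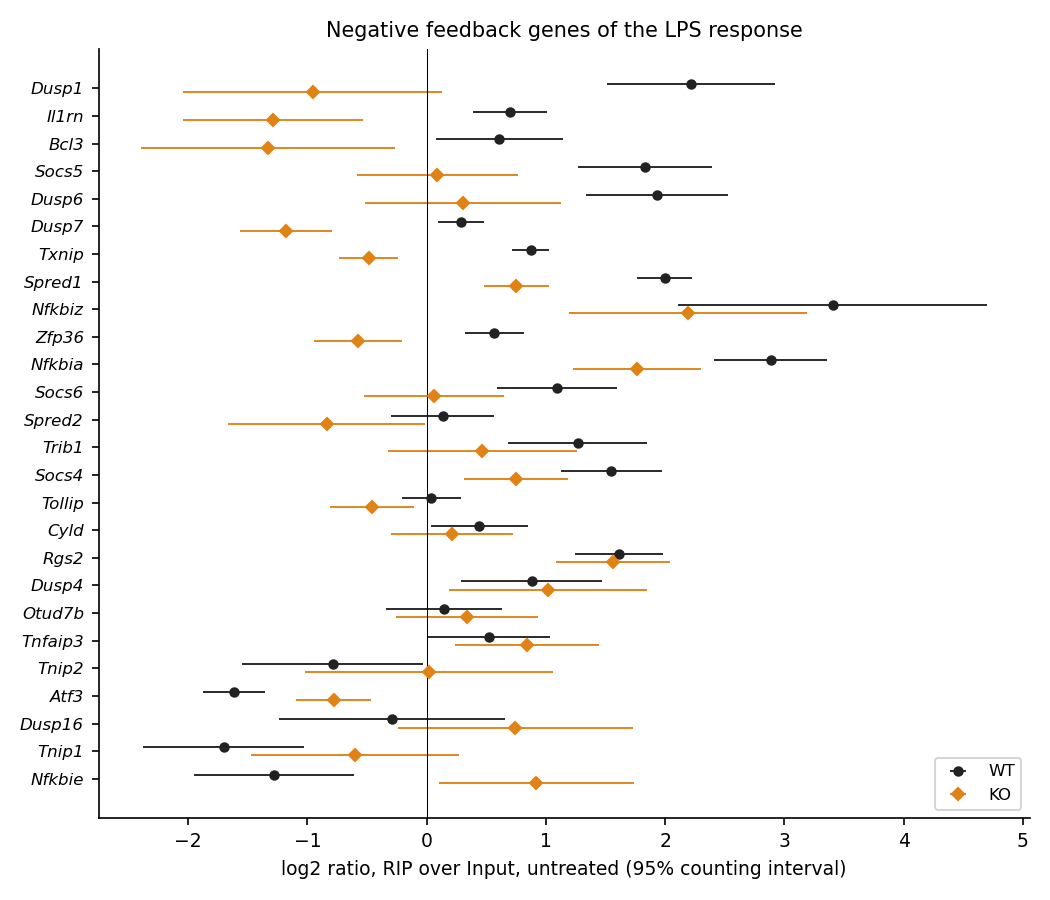
Log2 ratio of RIP over Input in untreated WT and KO BMDMs (horizontal axis) for the 26 negative feedback genes tested in both pairs, with 95% intervals from the read counts as bars, ordered by WT minus KO. The WT interval of Dusp1 (1.51 to 2.92) lies above its KO interval (-2.04 to 0.13), and Tnfaip3 and Atf3 are among the genes whose WT ratio is not above the KO ratio.

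The WT ratios of untreated cells were close to those after LPS, which came from other libraries of the same culture number. In the LPS pair 1654 of 6914 genes were enriched (23.9%) and 1765 depleted (25.5%). Of the 1443 genes enriched in untreated cells and tested with LPS, 1158 were enriched there (80.2%) and 0 were depleted. Of the 1190 depleted ones, 1051 were depleted (88.3%) and 0 were enriched. The Spearman correlation across 5788 genes was 0.94. Among the named genes Cpeb4 had a log2 ratio of 2.50 with LPS and 2.67 without, and Txnip 0.93 and 0.87. Il1rn had 109 Input reads untreated and 2845 with LPS, at ratios of 0.70 and 0.10, and Socs3 had 7 and 2056, at 1.58 and 0.07. Nfkbia had ratios of 2.88 and 1.19, and Ccl2 of 3.91 and 2.07. Socs3 and Ccl2 passed the read minimum of the untreated pair through their RIP reads, so a low untreated ratio at these Input levels could not have been seen.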

How the data were processed

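RIP-seq was done in BMDMs after formaldehyde crosslinking, lysis and sonication, with an anti-CPEB4 antibody on Protein A beads. The authors aligned single-end reads in local mode, used sambamba to remove duplicates, and summed the reads that overlapped each annotated Ensembl 3′-UTR. The submitters' processing notes name Bowtie2 2.2.2, MACS 1.4.2 and build mm10. The deposited tables hold raw counts per region with the lanes of a library summed, the authors' RPKM, CPE counts and predictions. The same tables hold the authors' log2 fold changes, p-values and peak scores, which were not used. Library totals were recovered from the counts and the deposited RPKM.

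Here 31117 regions were read, 495 without a symbol were left out (0.929% of the WT RIP and 1.04% of the WT Input reads), and ratios and normal intervals on the log2 scale were computed with Python 3.11.15 (numpy 2.4.6, pandas 2.3.3). The rule was run on simulated counts that held counting error only, so that run says nothing about a spread between libraries. There are no replicates, so no p-value is given. Sequences come from RefSeq GRCm38 and exon overlaps from the GENCODE M21 annotation. Of 140 named genes, 139 were found there, and the regions of 15 overlap an exon of another gene, 3 of them on the same strand, so their reads may belong to either gene. The named genes were Cpeb4 and 13 genes that the study names, the 15 highest and the 15 lowest ratios, and the 2 highest and 2 lowest of each functional list with at least 100 reads. Other members are named by choice after their values were seen. The members, lists and rules were chosen with earlier results of these data known. Alternatives were TMM (edgeR 4.0.16) and median-of-ratios scaling, library totals, 0.1 or 5 reads added, read minimums of 10 and 100, other choices of region, the ratio alone, a chi-square test and the edgeR exact test.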

Additional observations from a re-analysis of the deposited data

Results flagged for a closer look

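For 11 genes the WT and KO ratios of RIP over Input lay on opposite sides of 0, each beyond counting error. They were sought among the genes named by rule and the members of the negative feedback list. Many of those were picked by their WT ratio, so the 11 cannot be set against shares over all genes. With 1 library per group this difference was not tested against a spread between cultures. The WT ratio was above 0 and the KO ratio below 0 for Txnip, Il1rn, Zfp36, Slc2a1, Bcl3 and Dusp7, with WT minus KO log2 ratios of 1.36, 1.99, 1.14, 1.47, 1.94 and 1.47. The WT ratio was below 0 and the KO ratio above 0 for Rpsa, Rps9, Psmd13, Lars2 and Nfkbie, with differences of -2.46, -1.61, -1.98, -2.19 and -2.20. Among all 5198 genes tested in both pairs, 88 (1.69%) had the first pattern and 82 (1.58%) the second. On library totals the KO ratios were lower by 0.77 for every gene. There Rps9 and Psmd13 had KO ratios of -0.28 and -0.17 and no longer lay on opposite sides, whereas Rpsa and Lars2 had KO ratios of 0.72 and 0.88 and WT ratios of -0.91 and -0.49. Nfkbie had a KO ratio of 0.15 there, which did not pass counting error. Txnip, Il1rn, Zfp36, Slc2a1, Bcl3 and Dusp7 kept opposite signs on that scale.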

How the results depend on the processing

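No paired analysis was possible because the lanes that share a number are runs of the same library and are summed in 1 column. Without replicates, the number of enriched and depleted genes depends on the spread assumed. At least 100 reads left 860 enriched and 651 depleted genes of 3445 tested, and the edgeR exact test at a preset variation of 0.4 left 75 and 5 of 6159. Under that test the difference in the share enriched by prediction was 1.4 percentage points and that in the share depleted by width 0.4, since few genes were called. The prediction difference was 20.8 points with 5 reads added. The width difference was 19.9 points with at least 10 reads and 17.5 with a chi-square test, Benjamini-Yekutieli adjustment and a log2 ratio threshold of 0.5 in place of 1, and the cause was not tested. On library totals 905 enriched genes had a WT ratio above and 127 depleted genes a WT ratio below the KO ratio (525 and 631 as reported). The other 41 alternatives of these results stayed within 1.5 times the count or within the interval. For the functional lists 247 alternative medians lay within a 95% interval of the reported median, taken from the ordered ratios of the members. That interval is wide for short lists. Among these, medians near 0 changed sign for proteasome genes (-0.06 with 5 reads added, -0.19 with at least 10 and -0.64 with at least 100 reads), cytosolic ribosomal proteins (0.06 with at least 10 reads) and the actin cytoskeleton (0.04 with TMM or library totals, 0.02 with at least 100 reads). The other 4 were the CPEB family at 2.67 to 2.70 and the CCR4-NOT and poly(A) factors at 1.03 with 5 reads added, all above 0. Enriched genes made up 54.6% of the calls, and 50.7% to 58.3% under other scalings and numbers of reads added. The KO RIP was the shallowest library, at 467696 reads, which limits the genes that could be compared.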
